A study of Gallus gallus with 2 samples.

Results

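The genes described here were 8 hormone receptors, *FSHR*, *ESR1*, *NR3C1*, *NR3C2*, *THRB*, *GHR*, *INSR*, and *PTH1R*, together with *PTHLH*, which encodes a hormone and not a receptor. They were taken by symbol from the 29558 genes of the count tables of chicken peritoneal cells, where 8 of the 9 were listed under their own symbols. *PTH1R* was not listed by symbol. The gene listed as *PTH2R* (ENSGALG00010025577) has PTH1R and PTHR1 as synonyms in RefSeq and lies between *MYL3* and *CCDC12* both in the count tables and in RefSeq, so it was read as the parathyroid hormone receptor of the set, with the reservation that the tables themselves call it *PTH2R*.

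A cell responds directly to a hormone only if it makes a receptor for it. Nuclear receptors (here the estrogen receptor *ESR1*, the glucocorticoid receptor *NR3C1*, the mineralocorticoid receptor *NR3C2*, and the thyroid hormone receptor beta *THRB*) bind lipid-soluble hormones inside the cell and act on transcription. Receptors for peptide hormones sit at the cell surface: *FSHR* for follicle-stimulating hormone, known mainly from granulosa and Sertoli cells of the gonads, *GHR* for growth hormone, *INSR* for insulin, and *PTH1R* for parathyroid hormone and for the related peptide made from *PTHLH*, which acts mostly on neighbouring cells in bone, cartilage, and skin. A transcript shows that a cell type could make the receptor, whereas protein and response were not measured.

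Peritoneal tissue was taken from Huiyang Bearded Chickens aged 40 days. The birds had either a normal peritoneum or a black, melanin-laden visceral peritoneum (HVP, hyperpigmentation of the visceral peritoneum), and 10 birds of each kind were assigned to single-cell RNA sequencing. No other treatment or genotype was given, and each kind was represented by 1 library. In the GEO entries the library titled HVP carries files named Normal and the library titled Normal carries files named HVP, so the words "labelled HVP" and "labelled Normal" follow the titles, and any direction between the libraries would turn round if the file names were right. Among barcodes with more than 1000 genes, the library labelled HVP held 5866 of 7157 (median 5345 UMIs) and the library labelled Normal 5464 of 6981 (median 3818 UMIs). The libraries shared 14 barcodes.

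Each library was clustered without the receptor genes and named from marker lists. Both libraries held blood endothelial-like (1109 cells in the library labelled HVP and 1345 in that labelled Normal), fibroblast-like (1486 and 1265), tenocyte-like (846 and 497), pericyte-like (630 and 508), smooth muscle-like (385 and 663), melanocyte-like (95 and 61), mesothelial-like (70 and 76), Schwann-like (67 and 47), and satellite cell-like cells (33 and 39). The library labelled HVP alone had named clusters of myeloid-like (105 cells), lymphatic endothelial-like (34), and T cell-like cells (67). In the library labelled Normal, cluster 6 (337 cells) was left unnamed, because markers of myeloid cells and of T cells occurred in it side by side. A pair of clusters without a name matched between the libraries. The NELL1 cluster (634 and 277 cells) shared 7 leading genes, *ACAN*, *BCAN*, *COL26A1*, *CTHRC1*, *GRIA2*, *NELL1*, and *WNT7B*, and the F3 cluster (305 and 349 cells) shared 4, with *F3*, which encodes tissue factor, and *G0S2*, an inhibitor of lipolysis, among them. In every value pair that follows, the library labelled HVP comes first and the library labelled Normal second. Levels are UMIs summed over the cells of a class per 1000000 UMIs of that class (CPM), and ranges in brackets are 95% intervals that cover counting error only. Neither group was replicated, so no p-value is given. Classes under 50 cells were not ranked.

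**Figure D1:**
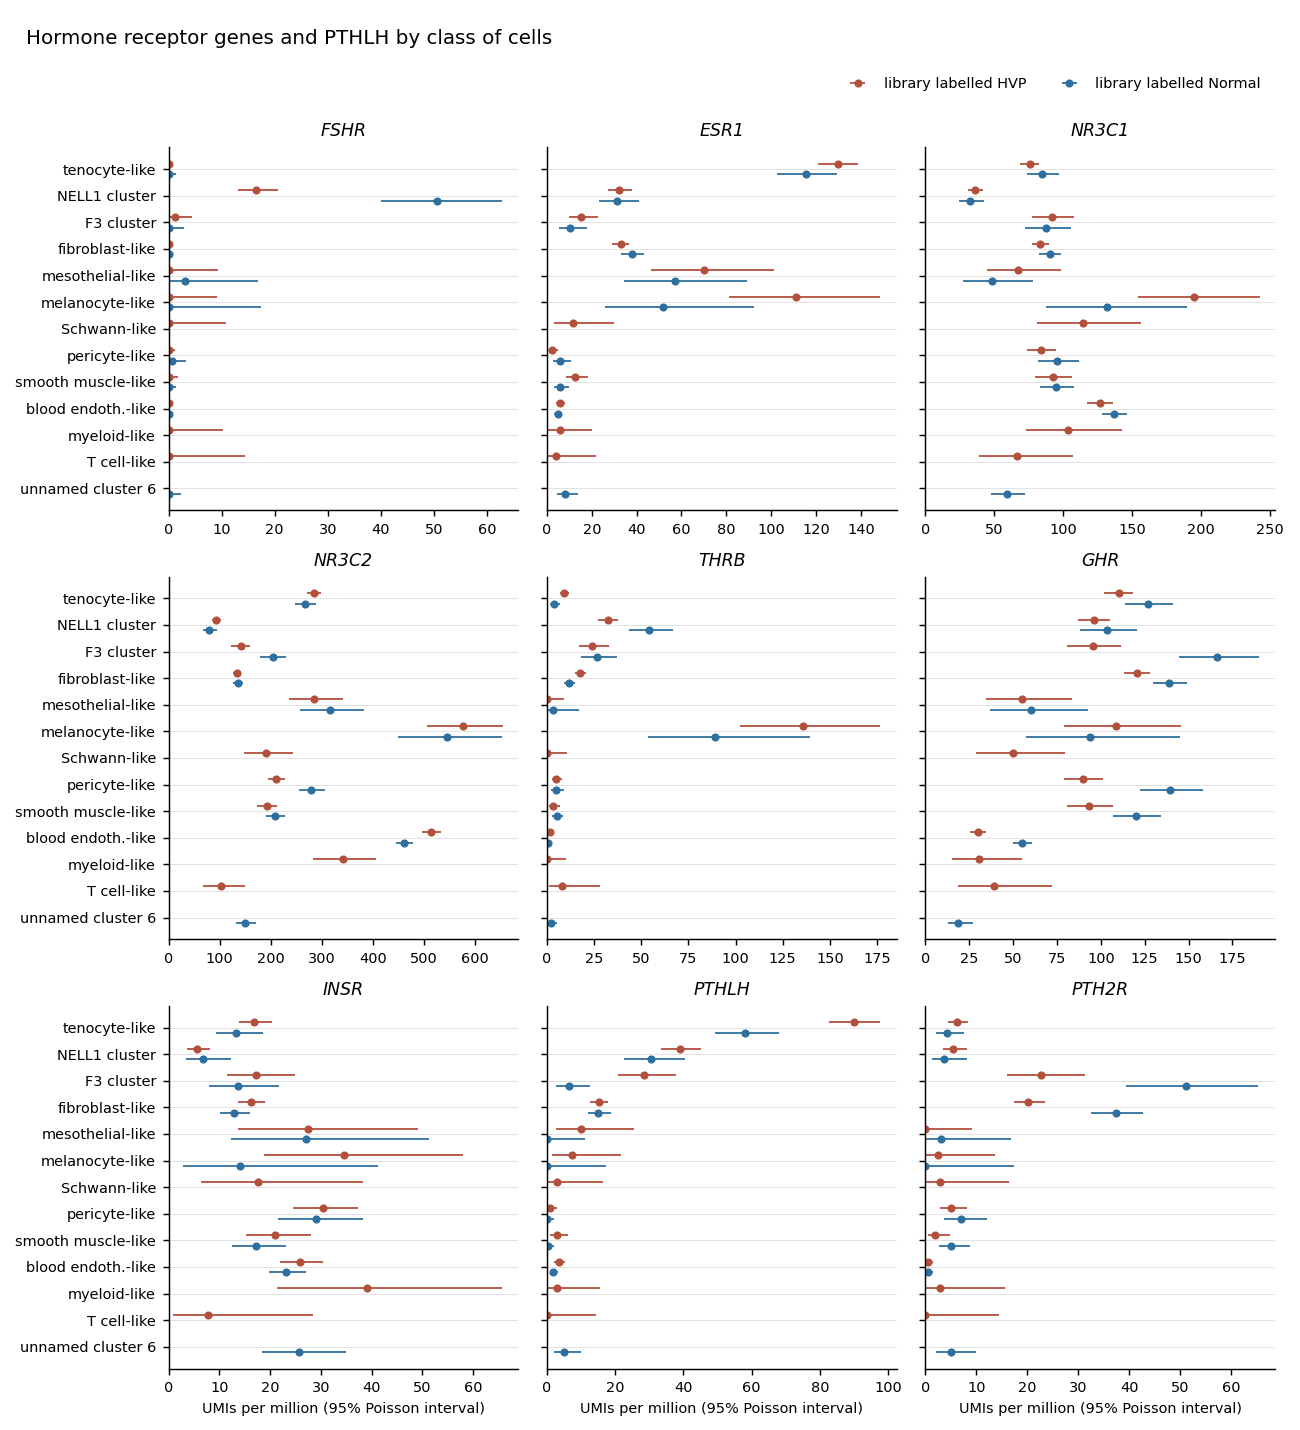
Level of each gene (CPM with 95% Poisson intervals, horizontal axis) in each class of cells (vertical axis), with 1 colour for each library. *FSHR* stands at 16.5 and 50.5 CPM in the NELL1 cluster and near 0 in the other classes of 50 or more cells, whereas *GHR* and *NR3C1* are spread over most classes.

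Among the 9 genes, 5 (*ESR1*, *NR3C2*, *THRB*, *PTHLH*, and *PTH2R*) were at least 2-fold higher in the same named class than in all other cells of both libraries, and 23.5% of all 12562 genes with enough UMIs did so. With the unnamed clusters as candidates *FSHR* joined them, 6 of 9 against 24.7% of all genes. The genes were chosen with earlier results of these data known, so nothing is drawn from this difference in shares. The remaining 3, *NR3C1*, *GHR*, and *INSR*, had their highest level in different classes in the libraries.

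*FSHR* (ENSGALG00010019997, chromosome 3, 7507706 to 7718306 in GRCg7b) was found almost wholly in the NELL1 cluster. This cluster held 75 of the 79 *FSHR* UMIs in the library labelled HVP (94.9%) and 81 of the 87 in the library labelled Normal (93.1%). Its level there was 16.5 CPM (13.0 to 20.7) and 50.5 CPM (40.1 to 62.8), against 0.13 and 0.26 CPM in all other cells, a ratio of 123 (46.2 to 464) and 196 (86.4 to 551). Under the named classes of 50 or more cells alone, the highest level rested on 1 UMI in each library, in tenocyte-like and mesothelial-like cells.

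The UMIs came from 37 of 634 cells (5.84%) and 39 of 277 cells (14.1%). After every cell was thinned to 2000 UMIs the shares were 3.32% (2.07 to 5.03) and 7.94% (5.04 to 11.8). Most cells of the cluster therefore had no *FSHR* UMI. Among those that did, 22 and 24 held 1 UMI, while the highest counts were 8 UMIs in 1 cell of the library labelled HVP and 6 UMIs in 2 cells of the library labelled Normal. Cells with *FSHR* had a median of 7440 and 5181 UMIs, and those without it 6300 and 4828. Blood endothelial-like cells, the comparison class for free RNA, showed it in 0 of 1109 cells (median 4062 UMIs), which allows up to 0.64 CPM by the Poisson interval, and in 1 of 1345 cells (median 4226 UMIs).

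**Figure D2:**
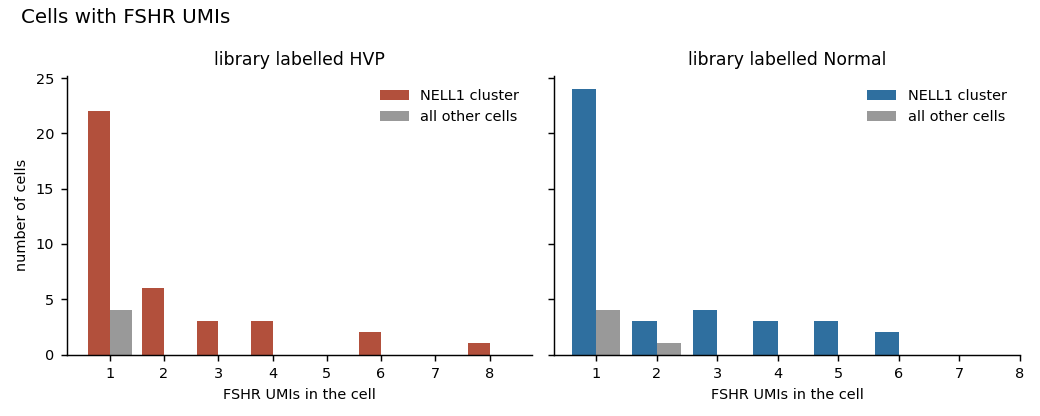
Number of cells (vertical axis) by the number of *FSHR* UMIs in the cell (horizontal axis), for the NELL1 cluster in colour and all other cells in grey, with 1 panel for each library. Up to 8 UMIs per cell occur inside the cluster, and outside it 4 cells with 1 UMI in the library labelled HVP and 4 with 1 and 1 with 2 in the library labelled Normal.

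Elsewhere *FSHR* UMIs were few. The 4 UMIs outside the cluster in the library labelled HVP lay in the F3 cluster (2 UMIs), in tenocyte-like cells (1 UMI), and in fibroblast-like cells (1 UMI). Of the 6 in the library labelled Normal, 3 lay in 2 of the 39 satellite cell-like cells, and mesothelial-like, pericyte-like, and blood endothelial-like cells held 1 UMI each. The satellite cell-like cells had only 148598 UMIs in total and were not ranked, so their *FSHR* level cannot be called low. In the library labelled HVP the 33 satellite cell-like cells had 0 *FSHR* UMIs. Free RNA was gauged by how strongly the markers of the leading class, here the shared leading genes of the NELL1 cluster, appeared in each other class. *FSHR* was at or below that level in 10 of 11 and 7 of 9 other classes. Most of these classes held 0 UMIs, where this outcome was fixed, and the rest held 1 UMI. The comparison therefore cannot tell free RNA from expression. The exceptions rest on 1 or 2 UMIs.

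The NELL1 cluster was checked against the gonadal markers fixed for granulosa and steroidogenic cells. Their sum over 8 genes was 13 UMIs in each library, 2.86 and 8.11 CPM, and the other classes ranged from 0 to 27.3 CPM and from 0.80 to 34.2 CPM. *INHA*, the inhibin alpha subunit, and *NR5A1*, a master regulator of steroidogenic cells, were at 0 UMIs in the cluster in both libraries. Over all cells *INHA* had 1 and 0 UMIs and *NR5A1* 8 and 18 UMIs, so a 0 in the cluster says little. *FSHB*, the hormone's own beta subunit, was at 0 UMIs in all cells of both libraries. Of 6 osteoblast markers, *RUNX2*, a transcription factor of bone and hypertrophic cartilage, stood at 272.9 and 293.8 CPM (119 and 106 CPM over all cells) and *PHEX*, a peptidase of bone cells in mammals, at 129.3 and 163.4 CPM (36.3 and 34.9 CPM). *BGLAP* was near its level over all cells (33.9 against 35.3 CPM and 48.0 against 34.4 CPM), and *IBSP*, *SPP1*, and *ALPL* had 0 or 1 UMI. Their sum was 437 CPM in the library labelled HVP, below the 849 CPM of T cell-like cells. In the library labelled Normal it was 506 CPM, above the 369 CPM of the F3 cluster, the highest of the other ranked classes. Of 6 chondrocyte markers, *ACAN*, which encodes aggrecan, was among the leading genes, whereas *SOX9* (3.08 against 7.47 CPM over all cells, and 1.25 against 10.4 CPM), *COL9A1* (2 and 0 UMIs), and *MATN3* (4.18 against 5.67 CPM, and 4.99 against 6.86 CPM) were low and *MATN1* and *HAPLN1* had at most 5 UMIs. The chondrocyte sum, 61.7 and 80.5 CPM, was the highest of the ranked classes in both libraries. Schwann-like cells (46.9 CPM) and fibroblast-like cells (34.6 CPM) came next. Most of the sum was *ACAN* (53.3 and 69.9 CPM). The cluster also carried tenocyte markers at 4384 and 4176 CPM in sum, below the 9358 and 9114 CPM of tenocyte-like cells. Most of this sum was *COL12A1* (2875 and 2901 CPM) and *CHAD* (1127 and 1052 CPM). These, *MKX*, and *TNMD* (299 against 233 CPM, and 186 against 85.0 CPM) were above their levels over all cells. *FMOD* (31.9 against 428 CPM, and 4.37 against 204 CPM), *THBS4* (3.96 against 35.4 CPM, and 1.87 against 16.8 CPM), and *SCX* were below, and *KERA* had 5 UMIs in each library. Of 8 fibroblast markers, *COL1A1*, a chain of type I collagen, stood at 60326 and 56631 CPM against 37818 and 23943 CPM over all cells. *LUM* stood at 1153 against 447 CPM, and at 965 against 250 CPM. *COL1A2*, *COL3A1*, *DCN*, *PDGFRA*, and *DPT* were also above their levels over all cells. *MFAP5* was below (293 against 492 CPM, and 284 against 380 CPM). In the library labelled Normal, 4 of the 8 fibroblast markers met the naming rule, but the 10 leading genes held more markers of another type. In the library labelled HVP, fewer than 3 markers of any type met it. The cluster was therefore given no cell type name.

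The same cluster was low in several other receptors. It had the lowest *NR3C1* of all ranked classes in both libraries (36.1 and 32.4 CPM), the lowest *NR3C2* (92.9 and 79.8 CPM), and the lowest *INSR* (5.51 and 6.86 CPM). Counting error did not separate it from the next class for *NR3C2* and *INSR* in the library labelled HVP (T cell-like cells at 102 and 7.86 CPM) and for *NR3C1* and *INSR* in that labelled Normal (mesothelial-like cells at 48.1 CPM and fibroblast-like cells at 12.8 CPM). *THRB*, in contrast, had its second-highest level in the NELL1 cluster, at 32.2 and 54.3 CPM.

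*ESR1* (ENSGALG00010005186, chromosome 3, 48719758 to 48824554), the receptor of 17-beta-estradiol, was highest in tenocyte-like cells. The level was 129.7 CPM (121 to 139) and 115.4 CPM (103 to 129), 5.96-fold (5.36 to 6.63) and 6.72-fold (5.76 to 7.84) over the other cells, and these cells held 57.4% and 44.1% of its UMIs. It had a UMI in 44.7% and 34.0% of tenocyte-like cells (19.5% and 16.8% after thinning to 2000 UMIs), and in 0.95% and 1.97% of pericyte-like cells, which had a median of 4619 and 3210 UMIs against 7309 and 5154 in the tenocyte-like cells.

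Melanocyte-like cells came next in the library labelled HVP, at 111.0 CPM (81.0 to 149), a level that could not be told from that of tenocyte-like cells (ratio 1.17, 0.86 to 1.61). In the library labelled Normal they stood at 51.7 CPM (25.8 to 92.5, 11 UMIs), and could not be told from fibroblast-like cells (37.7 CPM, ratio 1.37, 0.67 to 2.50). Mesothelial-like cells had 70.0 and 57.1 CPM, 2.13-fold (1.39 to 3.15) over fibroblast-like cells (32.8 CPM) in the library labelled HVP. The NELL1 cluster, at 32.2 and 31.2 CPM, stood at 0.25 and 0.27 of the level in tenocyte-like cells, where its tenocyte markers stood at 0.34 and 0.29 in the median. Several of these markers were above their level over all cells in the cluster, so the comparison cannot tell free RNA from expression. Blood endothelial-like cells (5.72 and 4.70 CPM) and pericyte-like cells (2.33 and 5.80 CPM) were low, as were T cell-like (3.93 CPM) and myeloid-like cells (5.59 CPM).

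*NR3C1* (ENSGALG00010016758, chromosome 13, 16997653 to 17099929) was the most evenly spread of the steroid receptors. Melanocyte-like cells were highest in the library labelled HVP at 194.9 CPM (154 to 243), 2.31-fold (1.82 to 2.89) over the others, while in the library labelled Normal blood endothelial-like cells at 137.1 CPM (129 to 146) and melanocyte-like cells at 131.6 CPM (87.4 to 190) did not differ beyond counting error. Smooth muscle-like, pericyte-like, and fibroblast-like cells and the F3 cluster lay within 83.6 to 92.4 CPM and 87.9 to 95.8 CPM, each next to a neighbour from which it could not be told.

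*NR3C2* (ENSGALG00010006735, chromosome 4, 31695484 to 31897457), which in mammals serves aldosterone and also binds glucocorticoids, had a steeper order. Melanocyte-like cells stood at 577 CPM (506 to 656) and 545 CPM (450 to 654), and blood endothelial-like cells at 514 CPM (496 to 533) and 462 CPM (446 to 478). These classes did not differ beyond counting error in either library (ratio 1.12, 0.98 to 1.28, and 1.18, 0.97 to 1.42), and blood endothelial-like cells were above the next class by 1.51-fold (1.26 to 1.82, over myeloid-like cells) and 1.46-fold (1.20 to 1.79, over mesothelial-like cells). By cells, 74.5% and 72.9% of blood endothelial-like cells had a UMI of it, against 31.2% and 28.9% of the NELL1 cluster. The 34 lymphatic endothelial-like cells of the library labelled HVP, too few to be ranked, stood at 531 CPM. Mesothelial-like cells (285 and 316 CPM), tenocyte-like cells (285 and 268 CPM), and pericyte-like cells (211 and 280 CPM) lay between, and fibroblast-like cells were low at 135 and 136 CPM.

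The balance of the corticosteroid receptors differed between classes. The ratio of *NR3C2* to *NR3C1* UMIs is not a ratio of transcripts, since the genes may be captured unequally, but it can be compared between classes. It was 4.06 (3.74 to 4.41) and 3.37 (3.13 to 3.62) in blood endothelial-like cells and 1.61 (1.47 to 1.77) and 1.51 (1.35 to 1.69) in fibroblast-like cells, with no overlap of the intervals in either library. Mesothelial-like cells had 4.22 and 6.56, tenocyte-like cells 3.76 and 3.16, and melanocyte-like cells 2.96 and 4.14. Pericyte-like cells (2.52 and 2.92) and smooth muscle-like cells (2.08 and 2.19) lay between.

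**Figure D3:**
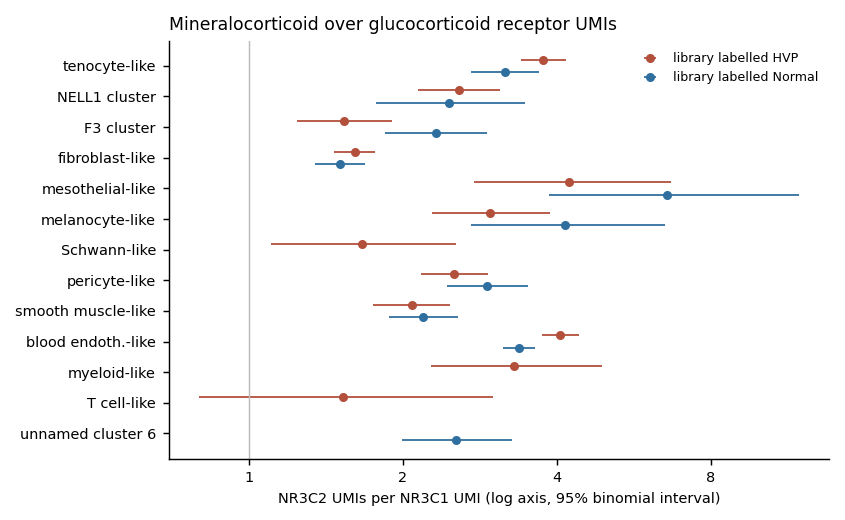
UMIs of *NR3C2* per UMI of *NR3C1* (horizontal log axis, with 95% binomial intervals) in each class (vertical axis), with 1 colour for each library. Blood endothelial-like cells at 4.06 and 3.37 lie to the right of fibroblast-like cells at 1.61 and 1.51.

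*THRB* (ENSGALG00010001557, chromosome 2, 37164426 to 37332785) was led by melanocyte-like cells. Its level was 135.7 CPM (102 to 177), from 55 UMIs in 27 of 95 cells, and 89.3 CPM (53.7 to 139), from 19 UMIs in 12 of 61 cells. That is 10.6-fold (7.88 to 14.1) and 9.43-fold (5.58 to 15.1) over the other cells, although these few cells held only 11.2% and 7.51% of the gene's UMIs. The share of cells with a UMI was 28.4% and 19.7% (20.2% and 10.0% after thinning), against 0.63% and 0.30% of blood endothelial-like cells at like depth (a median of 3840 and 3377 UMIs in melanocyte-like cells).

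In the library labelled HVP the gap to the NELL1 cluster was 4.22-fold (3.04 to 5.79), and in the library labelled Normal it was 1.65-fold with an interval that held 1 (0.95 to 2.73). The F3 cluster stood at 24.0 and 26.4 CPM, and fibroblast-like cells at 17.8 and 11.9 CPM. Tenocyte-like cells, which led for *ESR1*, were low at 9.15 and 3.82 CPM, and mesothelial-like cells had 0 and 1 UMI.

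*GHR* (ENSGALG00010014614, chromosome Z, 13962241 to 14094496) was present at a similar level in fibroblast-like, tenocyte-like, and mural classes. In the library labelled HVP it ran from 120.6 CPM (113 to 128) in fibroblast-like cells over tenocyte-like (110.1), melanocyte-like (108.5), NELL1 (96.0), F3 (95.4), and smooth muscle-like (93.3) to pericyte-like cells (89.7), and no neighbour in this order could be told from the next, although the first and the last were apart (79.3 to 101 for pericyte-like cells). In the library labelled Normal the F3 cluster came first at 166.1 CPM (144 to 190), followed by pericyte-like (139.3), fibroblast-like (139.0), tenocyte-like (126.8), and smooth muscle-like cells (119.9). Blood endothelial-like cells and leukocytes were low. Blood endothelial-like cells had 29.8 and 55.1 CPM, the myeloid-like cells 30.8 CPM, and cluster 6 of the library labelled Normal 18.9 CPM. The 34 lymphatic endothelial-like cells had 94.8 CPM (53.0 to 156), from 15 UMIs. The highest values of all, 164.9 and 201.9 CPM, were in the satellite cell-like cells, of which there were only 33 and 39.

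*INSR* (ENSGALG00010027254, chromosome 28, 4561063 to 4599420) had few UMIs, 649 and 455 in all. Pericyte-like cells had 30.3 CPM (24.4 to 37.3) and 29.0 CPM (21.5 to 38.3), blood endothelial-like cells 26.0 and 23.2 CPM, and fibroblast-like cells 16.2 and 12.8 CPM. The top rank in the library labelled HVP went to myeloid-like cells with 14 UMIs (39.2 CPM, 21.4 to 65.7), not distinct from the 4 classes next in the order but above fibroblast-like and tenocyte-like cells and the NELL1 cluster, whose intervals lay below. When clusters were split more finely, cluster 6 of the library labelled Normal parted into T cell-like and myeloid-like cells, with *INSR* at 14.8 and 54.6 CPM, the higher value again in the myeloid-like cells.

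*PTHLH* (ENSGALG00010021622, chromosome 1, 72858175 to 72871220), the ligand of the set, was highest in tenocyte-like cells at 89.9 CPM (82.7 to 97.6) and 58.1 CPM (49.2 to 68.1). The ratio to the other cells was 6.34 (5.57 to 7.22) and 7.76 (6.19 to 9.72), and a UMI was found in 34.6% and 22.1% of the cells (13.9% and 8.10% after thinning). Blood endothelial-like cells, for comparison, had one in 1.44% and 0.59%. The NELL1 cluster was next with 39.0 CPM (33.5 to 45.2) and 30.6 CPM (22.6 to 40.4), 0.43 and 0.53 of the level in tenocyte-like cells. The F3 cluster had 28.3 CPM (20.7 to 37.8) in the library labelled HVP and 6.39 CPM (2.76 to 12.6) in that labelled Normal. Fibroblast-like cells had 15.2 and 15.1 CPM, 0.17 and 0.26 of the level in tenocyte-like cells. The tenocyte markers stood there at 0.16 and 0.11 in the median. Part of this class carried the tenocyte marker *FMOD* above its level over all cells, so the comparison cannot tell free RNA from expression.

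*PTH2R* (chromosome 2, 3589244 to 3705684), the receptor read here as *PTH1R*, was highest in the F3 cluster and in fibroblast-like cells. The F3 cluster had 22.8 CPM (16.0 to 31.4) and 51.1 CPM (39.4 to 65.3), and fibroblast-like cells 20.2 CPM (17.4 to 23.4) and 37.4 CPM (32.5 to 42.7), which together with their number gave the latter 58.8% and 64.0% of its UMIs. Fibroblast-like cells were 4.09-fold (3.24 to 5.18) and 5.99-fold (4.77 to 7.55) over the rest. Tenocyte-like cells had 6.15 and 4.20 CPM and the NELL1 cluster 5.51 and 3.74 CPM, so that the pair of classes with the most ligand was low in this receptor, while the F3 cluster of the library labelled HVP held both.

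Cells with UMIs of both genes were counted within classes, as a description. Of 293 tenocyte-like cells with *PTHLH* and 26 with *PTH2R* in the library labelled HVP, 8 had both, and of 110 and 8 in the library labelled Normal, 1 had both. Among fibroblast-like cells 10 had both (of 113 with *PTHLH* and 125 with *PTH2R*) in the library labelled HVP and 6 (of 77 and 138) in that labelled Normal. Whether the genes met in 1 cell more often than their separate shares of cells would give was not tested. At a few UMIs per cell, a missing UMI does not show that the transcript was absent.

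The fibroblast-like and the blood endothelial-like cells each split into the same pair of sub-clusters in both libraries at a resolution of 0.5, a split described after the clusters had been seen. In the library labelled HVP the fibroblast-like class had already pooled 2 clusters of 810 and 676 cells at the resolution of 0.2. Fibroblast-like cells parted into a *WNT2* sub-cluster (808 and 553 cells, 12 shared leading genes with *SBK2* among them) and an *FMOD* sub-cluster (676 and 707 cells, 7 shared, with *TNMD*, *PDGFD*, and *RUNX1* among them). *FMOD* and *TNMD* are tenocyte markers of the list used for naming. In the *FMOD* sub-cluster *FMOD* stood at 765 and 291 CPM against 428 and 204 CPM over all cells. *TNMD* stood at 159 and 106 CPM against 233 and 85.0 CPM, so it was above that level only in the library labelled Normal. The cluster of 676 cells in the library labelled HVP carried 6 of 8 fibroblast markers, and no other type reached 3.

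*ESR1* was 7.90 and 7.61 CPM in the *WNT2* and 57.7 and 61.2 CPM in the *FMOD* sub-cluster, 7.31-fold (5.12 to 10.7) and 8.05-fold (5.02 to 13.7) apart. *THRB* went from 2.48 and 2.00 CPM to 33.0 and 19.8 CPM, 13.3-fold (7.22 to 27.2) and 9.88-fold (4.02 to 31.5), and *PTHLH* was 2.36-fold (1.62 to 3.51) and 2.15-fold (1.31 to 3.63) higher. The average level of the class thus hid a part with more *ESR1*, *THRB*, and *PTHLH* and a part with less. *PTH2R* lay the other way, at 23.9 and 44.0 CPM in the *WNT2* and 16.6 and 31.7 CPM in the *FMOD* sub-cluster, and *GHR* differed little (0.98-fold and 0.84-fold). Of the 8 genes with enough UMIs, 3 were at least 2-fold apart in the same direction in both libraries, against 9.52% of all 10400 genes tested.

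Blood endothelial-like cells parted into a *KCNQ5* sub-cluster (603 and 480 cells, with *MPP7* and *ERBB4*) and a *SEMA3G* sub-cluster (504 and 865 cells, with *CCLI5* and *COL28A1*). *NR3C1* was 82.4 and 76.5 CPM in the former and 166.5 and 162.2 CPM in the latter, 2.02-fold (1.72 to 2.37) and 2.12-fold (1.78 to 2.53) higher. *NR3C2* was level between them, 508 against 522 CPM and 449 against 467 CPM. *NR3C1* was the only one of the 5 genes with enough UMIs past 2-fold, where 9.03% of 10700 genes were.

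**Figure D4:**
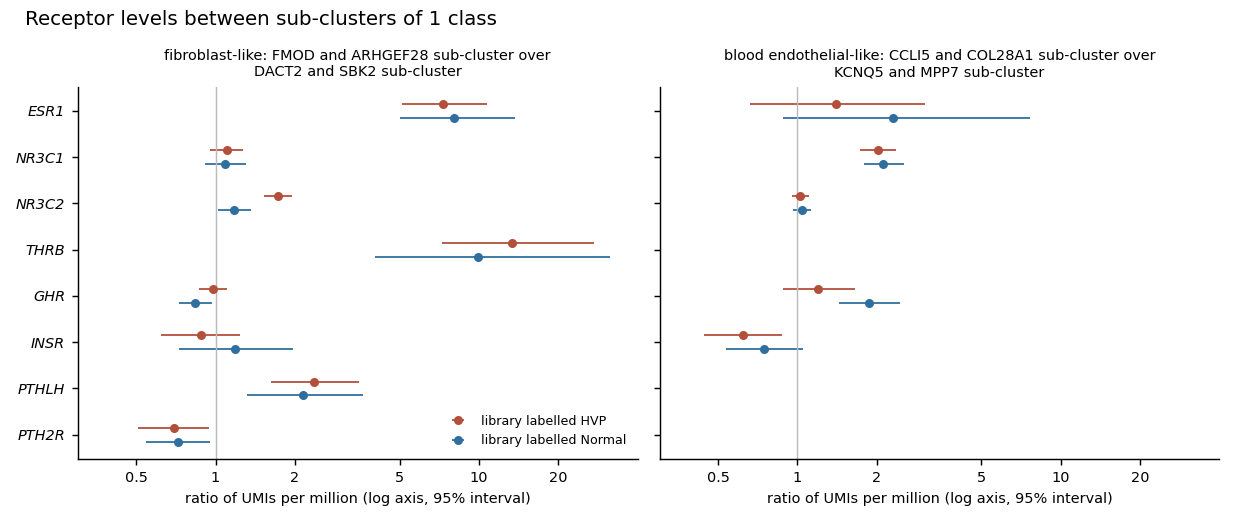
Ratio of the level of each gene between the paired sub-clusters (horizontal log axis, 95% intervals), with the fibroblast-like and the blood endothelial-like cells in separate panels and 1 colour for each library. *ESR1* and *THRB* stand at 7.31 and 13.3 (HVP) and at 8.05 and 9.88 (Normal) in the fibroblast-like cells, and *NR3C1* at 2.02 and 2.12 in the blood endothelial-like cells.

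Between the libraries, 12 of 67 pairs of a gene and a class were at least 1.5-fold apart with an interval that left out 1. Over all genes, 11.1% of 92732 such pairs were. Of the 12, 7 were higher in the library labelled Normal. These ratios compare 1 library with the other and not the conditions. The genes were chosen with earlier results of these data known and some recur among the 12, so nothing is drawn from the difference in shares. In the NELL1 cluster *FSHR* was 3.06-fold (2.21 to 4.24) and *THRB* 1.69-fold (1.28 to 2.22) higher in the library labelled Normal. The cluster itself held 634 and 277 cells, while the number of cells with *FSHR* was alike, 37 and 39.

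In the F3 cluster *GHR* was 1.74-fold (1.41 to 2.16) and *PTH2R* 2.25-fold (1.48 to 3.46) higher in the library labelled Normal, and the same held for *PTH2R* in fibroblast-like cells (1.85-fold, 1.51 to 2.27) and for *GHR* in blood endothelial-like (1.85-fold, 1.54 to 2.23) and pericyte-like cells (1.55-fold, 1.30 to 1.86). In the other direction, *PTHLH* in tenocyte-like cells was at 0.65 (0.54 to 0.77) and in the F3 cluster at 0.23 (0.09 to 0.48) of its level in the library labelled HVP. The remaining 3, *THRB* in tenocyte-like cells (0.42, 0.19 to 0.82), *ESR1* in melanocyte-like cells (0.47, 0.22 to 0.91), and *ESR1* in smooth muscle-like cells (0.47, 0.23 to 0.91), had 10, 11, and 15 UMIs in the library labelled Normal. The leading classes kept their levels of *ESR1* and *NR3C2* within 1.5-fold, at 129.7 and 115.4 CPM in tenocyte-like and 577 and 545 CPM in melanocyte-like cells.

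**Figure D5:**
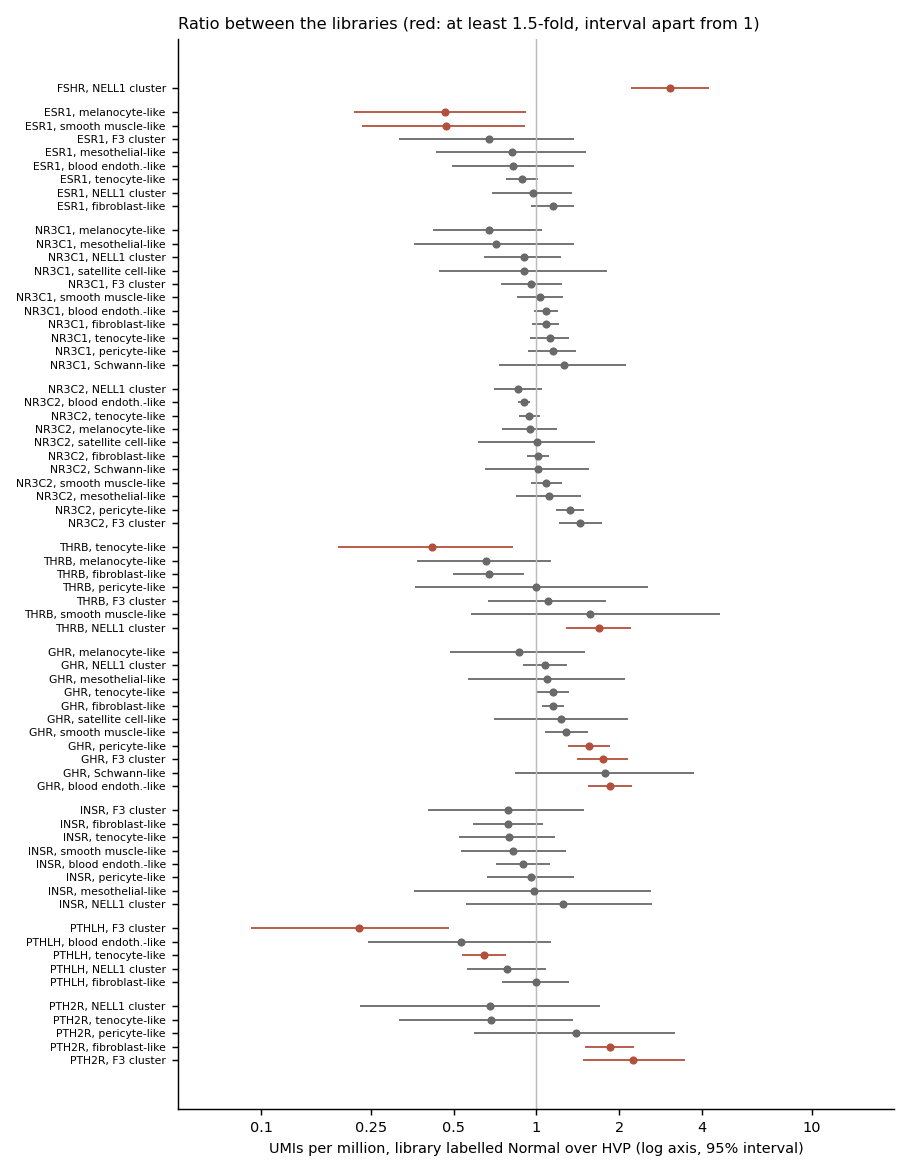
Ratio of the level in the library labelled Normal over that in the library labelled HVP (horizontal log axis, 95% intervals) for each pair of a gene and a class with at least 20 UMIs. The 12 pairs in red are at least 1.5-fold apart, with *FSHR* in the NELL1 cluster at 3.06 and *PTHLH* in the F3 cluster at 0.23.

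The genes around the receptors were taken from fixed lists and read in the same way, with 24.7% of all genes past 2-fold in the same class in both libraries and a median ratio of 2.18. Of the steroid receptors and their handling genes, 4 of 12 passed (median 2.12). *PGR*, the progesterone receptor and a classical target of *ESR1* in the mammalian and avian oviduct, was highest in mesothelial-like cells (180 and 87.2 CPM, 25.2-fold and 16.4-fold) and not in tenocyte-like cells. *ESR2*, the other estrogen receptor, had too few UMIs for the count (57 and 32). Its highest level was also in mesothelial-like cells (45.0 and 42.1 CPM), with a ratio of 39.2 (21.1 to 70.2) and 57.5 (26.5 to 122). *NRIP1*, a corepressor of nuclear receptors, led in melanocyte-like cells (5.58-fold and 3.79-fold), *SULT1E1*, which inactivates estrogens by sulfation, in fibroblast-like cells (2.83-fold and 3.30-fold), and *HSD17B12*, an enzyme of fatty acid elongation, in smooth muscle-like cells (7.55-fold and 8.59-fold).

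Of the targets of the corticosteroid receptors 4 of 11 passed (median 2.80). *ATP1B1*, a subunit of the sodium pump, led in blood endothelial-like cells (17.0-fold and 10.9-fold), while *ERRFI1*, a feedback inhibitor of the EGF receptor (4.12-fold and 2.80-fold), led in pericyte-like cells and the metallothionein *MT4* in smooth muscle-like cells (9.57-fold and 6.59-fold). Blood endothelial-like cells were also first or second for *NR3C1* and *NR3C2* in both libraries, whereas the leading classes of *ERRFI1* and *MT4* were not. Of the thyroid hormone genes only 1 of 12 passed (median 1.78), below the share of all genes. That gene, *TTR*, the thyroid hormone carrier transthyretin, stood at 335.5 and 1297 CPM in melanocyte-like cells, 1629-fold and 1233-fold over the others, in the class that led for *THRB*. *THRA*, the other thyroid hormone receptor, did not pass. It had more UMIs than *THRB* (634 and 522 against 489 and 253). Its highest level was in pericyte-like cells in both libraries (36.3 and 34.8 CPM, 2.17-fold and 1.75-fold), so *THRB* alone does not give the classes with a thyroid hormone receptor.

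The growth hormone and IGF list had 9 of 13 past the fold (median 2.95). *SOCS2*, a feedback inhibitor of *GHR* signalling, and *IGF2* led in blood endothelial-like cells (7.27-fold and 4.53-fold, and 5.71-fold and 4.45-fold), the class low in *GHR*. *IGF1*, a growth factor induced by growth hormone in liver, and *PRLR*, the prolactin receptor, led in tenocyte-like cells (4.85-fold and 4.97-fold, and 3.89-fold and 5.93-fold), and *IGFBP2*, which binds IGFs, in mesothelial-like cells (6.82-fold and 7.18-fold). In the insulin list 5 of 15 passed (median 2.51). *SLC2A1*, the glucose transporter GLUT1 (5.08-fold and 3.08-fold), and *PDK4*, a kinase that inhibits pyruvate dehydrogenase (9.68-fold and 4.84-fold), led in pericyte-like cells, and the adaptors *IRS4* and *GRB10* in mesothelial-like cells (2.29-fold and 2.72-fold, and 2.18-fold and 2.26-fold).

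In the gonadotropin list 6 of 11 passed (median 3.34), and none of the 5 with the largest ratio led in the NELL1 cluster. The adenylyl cyclases *ADCY3* and *ADCY6* led in smooth muscle-like cells (10.5-fold in both libraries, and 5.58-fold and 4.95-fold), the activin subunits *INHBA* and *INHBB* in tenocyte-like cells (8.70-fold and 7.72-fold, and 4.79-fold and 3.29-fold), and *CYP11A1*, the first enzyme of steroid synthesis, in fibroblast-like cells at the low level of 8.99 and 9.30 CPM. *LHCGR*, the receptor for luteinizing hormone, had too few UMIs for the count (45 and 31), and its highest level was in mesothelial-like cells (22.5 and 27.1 CPM).

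The parathyroid-type list, which also held *PTH2R*, had 9 of 12 past the fold (median 5.48), and *PTH* itself was at 0 UMIs in both libraries. *RAMP2* and *CALCRL*, which together form the adrenomedullin receptor, led in blood endothelial-like cells (15.8-fold and 11.2-fold, and 18.6-fold and 14.7-fold), as did *VDR*, the vitamin D receptor (8.29-fold and 7.31-fold). *RGS2*, which limits G protein signalling, led in smooth muscle-like cells (6.10-fold and 7.30-fold) and *PKIA*, an inhibitor of protein kinase A, in pericyte-like cells (6.32-fold and 6.04-fold). Of the other hormone receptors 11 of 19 passed (median 4.49). *GCGR*, the glucagon receptor, led in smooth muscle-like cells at 26.6 and 24.0 CPM (37.3-fold and 15.3-fold), *MC5R*, a melanocortin receptor, in blood endothelial-like cells at 12.6 and 14.5 CPM (11.3-fold and 21.7-fold), and *RARB*, a retinoic acid receptor, in melanocyte-like cells at 780 and 987 CPM (5.78-fold and 7.95-fold).

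Genes of dissociation and stress were read beside these values. Of that list 3 of 10 passed (median 1.74). They were *HSPH1* in blood endothelial-like cells (3.69-fold and 3.29-fold), *SOCS3* in smooth muscle-like cells (3.90-fold and 3.41-fold), and *DNAJB1* in the NELL1 cluster (117.8 and 94.2 CPM, 2.91-fold and 2.45-fold). The NELL1 cluster was also highest in both libraries for *HSPA2* (3.88-fold and 1.89-fold), *HSPA8* (1.72-fold and 1.42-fold), and *EGR1* (1.71-fold and 1.59-fold). *FOS* was highest in pericyte-like and *JUN* in fibroblast-like cells in both libraries. *ATF3* and *HSP90AA1* led in different classes, *HSP90AA1* in the NELL1 cluster in the library labelled HVP. The part of these genes in the receptor levels was not tested.

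The genes most like each receptor were found by correlation of log2(CPM + 1) over 10 named classes of the library labelled HVP and 7 of the library labelled Normal, as a description over few points that share libraries and depth. *ESR1* was most like *FAM173A* (r 0.92 and 0.94), ENSGALG00010006785 (0.91 and 0.92), and *EVC* (0.91 and 0.92). *PTHLH* was most like *FAAP100* (0.93 and 0.98), ENSGALG00010010757 (0.92 and 0.97), and *SMIM20* (0.92 and 0.92), none of which was among the 3 for *ESR1*, although both genes were highest in tenocyte-like cells.

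*NR3C2* was most like *SDCBP* (0.86 and 0.90), *HOXD9* (0.84 and 0.86), and *PLXNB2* (0.81 and 0.81), and *NR3C1* like *MICALL1* (0.90 and 0.99), *TPD52L1* (0.89 and 0.93), and ENSGALG00010026609 (0.85 and 0.86). *GHR* was most like ENSGALG00010020453 (0.93 and 0.93), *ZFHX4* (0.93 and 0.90), and *GALNT16* (0.93 and 0.89), and *PTH2R* like *CERCAM* (0.90 and 0.93), *C1QTNF7* (0.89 and 0.92), and *PAPD5* (0.95 and 0.83). *THRB* came nearest to the ribosomal protein genes *RPL27A* (0.88 and 0.85) and *RPS4Y1* (0.85 and 0.84) and to *GPR162* (0.83 and 0.87), and *INSR* to *SLC4A2* (0.88 and 0.95) and *ZNF516* (0.79 and 0.81). With the unnamed clusters added (12 and 10 groups of cells), these lists changed. *NR3C1*, *THRB*, and *INSR* kept none of the genes named here. *ESR1* kept only ENSGALG00010006785, *PTHLH* only *FAAP100*, *NR3C2* only *SDCBP*, *GHR* only ENSGALG00010020453, and *PTH2R* only *C1QTNF7* and *PAPD5*. The most alike genes therefore depend on which groups of cells are included. For *FSHR* no likeness is given, because the named classes held 0 or 1 UMI of it each.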

How the data were processed

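The authors prepared 3′ single-cell libraries (10x Genomics v3.1 chemistry) and obtained UMI counts with Cell Ranger 7.1.0, which aligns with STAR, on GRCg7b with mitochondrial genes added by hand. The deposited values are these raw counts per gene and barcode, with no normalization. Whether intronic reads were counted is not given in the sources used here.

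The filter the study states, more than 1000 genes per barcode, was applied here and leaves more cells than the study counted. Each library (34391591 UMIs kept in that labelled HVP and 24927669 in that labelled Normal) was clustered with Seurat 5.3.0 (log normalization, 2000 variable genes without the receptors and listed genes, 20 principal components, resolution 0.2). A cluster took the name of a type with at least 3 markers that were 2-fold higher than in other cells and present in 10% of its cells. It stayed unnamed if the 10 leading genes held more markers of another type, for which the condition of 10% of cells was added after the clusters were seen; without it, pericyte-like cells of the library labelled HVP and smooth muscle-like cells of that labelled Normal stay unnamed. Scrublet (scanpy 1.11.5) called 5 and 133 barcodes doublets, did not work in the library labelled HVP, and removed none.

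UMIs were summed per class and divided by class totals, with exact Poisson intervals for levels, conditional binomial intervals for ratios, and Clopper-Pearson intervals for shares of cells. Genes needed 50 UMIs in each library for the class count and 20 for ratios between libraries or sub-clusters. Named genes were the 9 of the set, up to 5 per list with the largest ratio past 2-fold, list genes at 0 UMIs, and the 3 most alike genes of at least 200 UMIs. A few genes that this rule names are not reported here. *LHCGR*, *ESR2*, *THRA*, the stress genes that did not pass, and the marker genes of the NELL1 cluster were named after their values were seen. The genes of the set and the lists were chosen with earlier results of these data known. Coordinates are from RefSeq (GRCg7b). Only the intervals for ratios were tested on simulated counts with known ratios. Alternatives covered the cell filter, doublets, clustering, totals, thinning, and TMM factors (edgeR 4.0.16).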

Additional observations from a re-analysis of the deposited data

Results flagged for a closer look

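In the same contrast between the libraries, *THRB* went opposite ways in a pair of cell groups: it was 1.69-fold (1.28 to 2.22) higher in the library labelled Normal in the NELL1 cluster, and at 0.418 (0.19 to 0.82) of its level in the library labelled HVP in tenocyte-like cells (10 UMIs in the library labelled Normal). With 1 library per group the difference between the groups was not tested. The barcodes with 1000 genes or fewer, which enter no comparison, also held UMIs of the 9 genes. There were 945 in the library labelled HVP (553 CPM, against 534 CPM in the kept cells) and 1128 in the library labelled Normal (582 against 553 CPM), of which 2 and 12 were *FSHR*.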

How the results depend on the processing

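No paired analysis was possible because each group has 1 library, and for the same reason no library could be left out. All 23 counts of genes past a threshold stayed within 1.5 times under the alternatives. Of 171 alternative log2 ratios of a leading class to the other cells 157 moved by less than their counting interval and 14 by more, and for *FSHR* in the NELL1 cluster the ratio ran from 6.37 to 7.61 (6.95 as reported) and from 7.02 to 9.08 (7.62 as reported). Of 643 alternative ratios between the libraries 615 stayed within their interval, 23 moved beyond it, and 5 changed sign. *NR3C2* went from 0.53 to -0.23 (log2) in the F3 cluster when the libraries were clustered together and the cluster held 54 and 39 cells instead of 305 and 349, and from -0.15 to 0.012 in blood endothelial-like cells under a filter of 300 to 4000 genes and at most 5% mitochondrial UMIs. The cause of the latter was not tested. *THRB* in fibroblast-like cells went from -0.57 to 2.53 with more than 500 genes, to 2.00 under that filter, and to 2.50 with the receptors among the variable genes. Under these settings the fibroblast-like class of the library labelled HVP held 880, 693, and 777 cells instead of 1486, so the class then left out cells it holds in the report. *FSHR* in the NELL1 cluster ran from 1.22 to 1.70 (1.61 as reported). Of 18 shares of cells after thinning to 1000 UMIs 3 stayed within their interval and 15 moved, as fewer UMIs per cell must lower them. The depth limits *INSR* and *PTH2R* in classes under 100 cells, where each value rests on fewer than 15 UMIs.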
